A study of Mus musculus with 6 samples.

Results

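The 10 genes described here are feedback targets of ERK signalling: the Sprouty genes Spry1, Spry2 and Spry4, the related Spred1 and Spred2, the phosphatase genes Dusp4, Dusp5 and Dusp6, and the ETS transcription factor genes Etv4 and Etv5. They were chosen by name, with earlier results of these data known. A probe set was taken where the platform annotation gave it 1 gene symbol equal to a listed name. All 10 were measured, by 28 of the 45101 probe sets, among 18193 genes in all. Where a gene has several probe sets, its brightest by mean over the 6 arrays leads. The arrays measured uterine horns of ovariectomized female mice, 8 weeks old and of mixed background, all carrying GATA2 f/f, which by convention denotes floxed Gata2 alleles. A group of 3 arrays followed P4, the usual abbreviation of progesterone, and the other group of 3 followed Oil, the usual carrier of steroids. Both groups lack the ovarian source of steroids, and the labels name no recombinase, dose or time. The study, by its title, profiled where the progesterone receptor and GATA2 bind in the uterus, and these arrays compare transcripts with and without the hormone.

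Growth factors that bind receptor tyrosine kinases activate RAS, RAF, MEK and ERK in turn. Active ERK raises transcription of its own brakes: Sprouty and SPRED proteins act upstream on RAS and RAF, and dual-specificity phosphatases remove phosphates from ERK itself. Etv4 and Etv5 are transcription factors that ERK induces, in part by relieving repression by Capicua. In the uterus, growth factors carry signals between stroma and epithelium, and progesterone is known to restrain growth of the epithelium.

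Median intensities of the 6 arrays ran from 117 to 123, and pairwise correlations of log2 values from 0.967 to 0.994. No 2 arrays shared more than 18 identical values. Whether each array stands for its own animal is not in the labels, so the p-values cover only the spread among these arrays, which may be technical. With 3 arrays a group, their number limits how precise any value is. Log2 fold changes are of P4 against Oil on the log2(intensity + 16) scale, given ± SE, and mean intensities are given ± SD of 3 arrays. Of 7 uterine identity genes, 4 rose after P4 and 2 fell: Hoxa11 (log2 fold change 0.89 ± 0.08), Hoxa10 (0.81 ± 0.10), Gata2 (0.75 ± 0.11) and Hand2 (0.50 ± 0.10) were higher, and Pgr (-0.86 ± 0.08) and Esr1 (-0.36 ± 0.07) lower, while the gland factor Foxa2 had 242 ± 36.8 after P4 and 239 ± 42.5 after Oil. Hand2 lost its call without Oil replicate 2 or 3 (limma adjusted p up to 0.0707), and that of Esr1 did not hold when Oil replicate 1 or 2 was removed (up to 0.0743). The hybridisation controls were lower on the P4 arrays by a mean log2 difference of -0.127 (exact two-sided permutation p 0.1, the smallest possible with 3 against 3 arrays). When arrays were scaled to these controls, the median over all genes shifted up by 0.127.

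Spry1, Dusp4 and Etv5 were lower after P4, each from a different family, and none of the 10 was higher. That is 3 of 10 called by limma at an adjusted p under 0.05, where 13.0% of all genes were called, 6.08% higher and 6.94% lower. The median log2 fold change of the 10 was -0.18, against -0.01 over all genes. In 5 of the 10 the P4 and Oil arrays did not overlap, where 31.8% of all genes had no overlap and 17.5% had all P4 arrays on the lower side. All 5 were lower after P4: Spry1, Spry2, Spred2, Dusp4 and Etv5. With the replicate number as a block, Spry2 and Spred2 passed as well, so 5 were called. With scaling to the hybridisation controls only Dusp4 was called. In whole tissue, fewer cells of a type and less RNA per cell cannot be told apart.

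**Figure D1:**
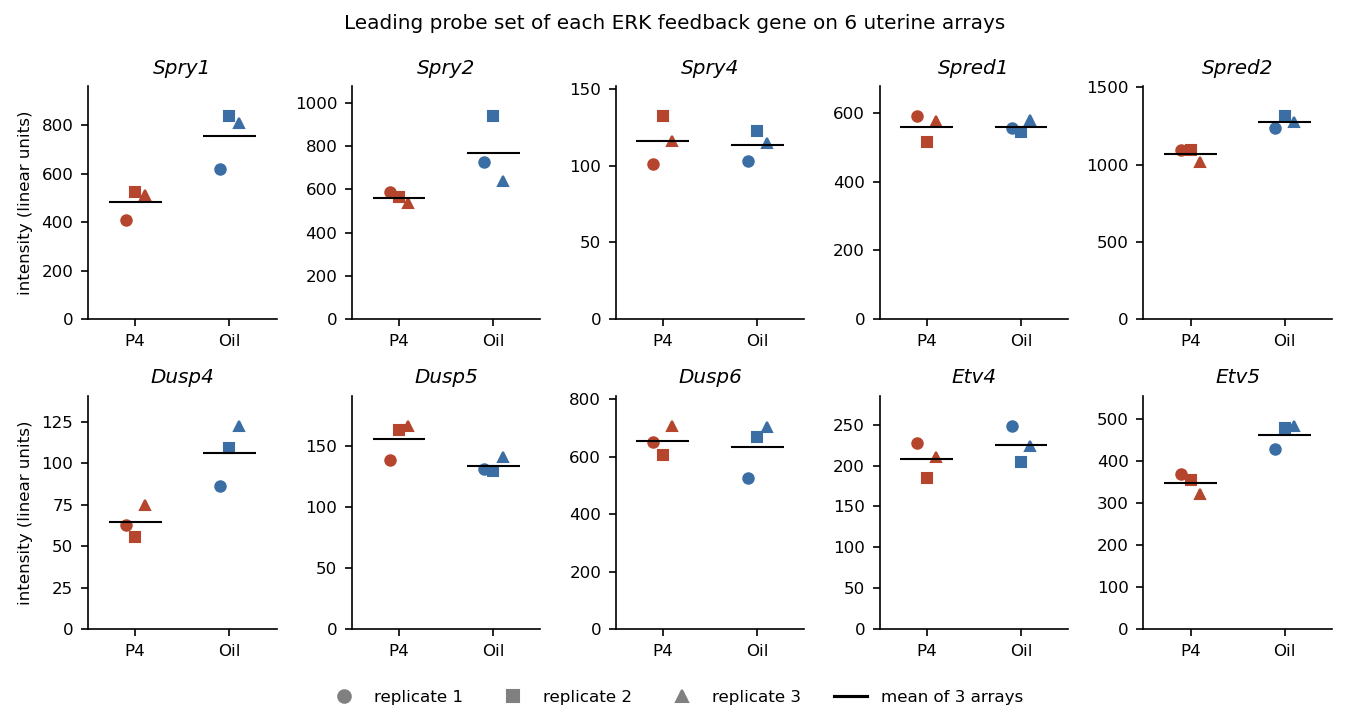
Intensity (linear units, axes from 0) of the leading probe set of each of the 10 genes, with P4 arrays at left and Oil arrays at right; symbols give the replicate number and bars the mean of 3 arrays. Spry1, Spry2, Spred2, Dusp4 and Etv5 lie lower on all 3 P4 arrays than on any Oil array, and the groups overlap for the others.

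Sprouty proteins block signalling between receptor and RAF. Spry1, a feedback inhibitor that also limits signalling in kidney development in mice, had intensities of 409, 526 and 513 on the P4 arrays, against 619, 837 and 810 on the Oil arrays. Every P4 array was below the lowest Oil array, and replicate 1 was the lowest array of each group. The log2 fold change was -0.63 ± 0.14 (limma adjusted p 0.0273), a fold of 0.648. The block gave an adjusted p of 0.00153. The call held without Oil replicate 1 (0.0233) and was lost without P4 replicate 1 (0.0535), 2 (0.0558) or 3 (0.0516) and without Oil replicate 2 (0.112) or 3 (0.0751).

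Spry2 had 589, 564 and 535 after P4, against 728, 938 and 639 after Oil. The P4 arrays were close together below all Oil arrays, and Oil replicate 2 was well above the other Oil arrays. The log2 fold change of -0.42 ± 0.14 did not pass (adjusted p 0.0855), but did with the block (0.0282) and without Oil replicate 3 (0.0409). Its other, dimmer probe set had 129 ± 9.37 after P4 and 145 ± 30.7 after Oil (n = 3 each), with a log2 difference of -0.14 ± 0.14. Spry4 had 101, 132 and 116 after P4, against 103, 122 and 114 after Oil. These values overlapped throughout, and the log2 difference was 0.03 ± 0.11, with a 95% interval from -0.24 to 0.29. Its 4 probe sets did not run the same way. The second in level had 118, 132 and 91.8 after P4, against 79.4, 81.5 and 84.7 after Oil, above every Oil array on all P4 arrays (log2 difference 0.40 ± 0.12, adjusted p 0.0836 over all named probe sets), while the dimmest had a log2 difference of -0.13 ± 0.10.

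The promoter of Spry1 is printed because Spry1 had the lowest log2 fold change of the 10. The proximal promoter of Etv5 follows because Etv5 was also called and its repression by Capicua is known, and that of Dusp6, a classical ERK target that was not called, stands beside it. Each run is the 250 bases before a transcript start, from RefSeq on GRCm38.p6, and capitals mark the letters TGAATGA or TGAATGG on either strand, which form the core of known Capicua sites. Spry1 lies on the plus strand at chr3:37639697-37639946, Etv5 on the minus strand at chr16:22438369-22438618 and Dusp6 on the plus strand at chr10:99262981-99263230.
Spry1: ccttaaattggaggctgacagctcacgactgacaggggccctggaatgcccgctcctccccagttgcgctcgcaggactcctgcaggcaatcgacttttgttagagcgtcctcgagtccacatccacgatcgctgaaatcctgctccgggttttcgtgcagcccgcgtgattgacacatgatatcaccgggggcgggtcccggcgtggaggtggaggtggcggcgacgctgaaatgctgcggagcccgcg
Etv5: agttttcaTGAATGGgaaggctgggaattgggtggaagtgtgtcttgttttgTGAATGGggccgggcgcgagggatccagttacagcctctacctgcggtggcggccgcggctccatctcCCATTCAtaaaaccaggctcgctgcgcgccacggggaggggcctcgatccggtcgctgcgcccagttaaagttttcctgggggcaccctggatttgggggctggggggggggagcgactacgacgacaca
Dusp6: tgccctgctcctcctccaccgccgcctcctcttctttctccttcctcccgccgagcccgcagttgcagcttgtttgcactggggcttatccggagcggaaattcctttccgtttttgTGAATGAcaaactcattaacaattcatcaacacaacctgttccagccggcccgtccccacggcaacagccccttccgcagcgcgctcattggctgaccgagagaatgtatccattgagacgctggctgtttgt

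Promoter windows of 300 bases, 250 before and 50 after the start, were given for 7 of the 10 genes, in 8 windows, since Etv5 has 2. Spry4, Dusp4 and Etv4 had none. The Capicua letters stood in 3 of the 8 windows and in 7.1% of 32851 windows of all genes. Etv5 held 3 matches in the window printed above, beginning at -242, -198 and -130 from the start, and 0 in its upstream window. Dusp6 held 1 at -133 and Dusp5 1 at -38. TGACGT, the core of a cyclic AMP response element, stood in 2 of the 8 windows, those of Dusp5 and Spred2, against 7.51% of all. The ETS letters CCGGAAG (8.86% of all windows), the AP-1 letters TGANTCA (7.81%), TGTTCT of steroid receptor elements (19.0%) and AGATAA of GATA elements (11.2%) stood in 0 of the 8. Searches covered both strands, and no window of these genes had overlapping matches of different motifs. The Capicua letters thus stood by a gene that was lower after P4 (Etv5) and by genes that were not called (Dusp5 and Dusp6).

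SPRED proteins bring neurofibromin, which inactivates RAS, to the membrane. Spred1 had 589, 514 and 575 after P4, against 555, 544 and 579 after Oil. The groups overlapped, and the log2 difference was -0.00 ± 0.08 (95% interval -0.20 to 0.19). It was read by 8 probe sets, with log2 differences from -0.27 ± 0.12 to 0.00, none of them called among all named probe sets. Spred2 had 1096, 1096 and 1018 after P4, against 1236, 1311 and 1276 after Oil. All P4 arrays were lower, but the log2 fold change was small, at -0.25 ± 0.07 (adjusted p 0.0601; 0.0442 with the block). It also passed when the dimmest 30% of genes were left out (0.0437). A second probe set of Spred2 had 342, 312 and 342 after P4, against 502, 421 and 513 after Oil, with no overlap. Its log2 difference of -0.51 ± 0.10 passed among all named probe sets (adjusted p 0.0181), while the 3 dimmer ones had differences between -0.10 and -0.06.

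**Figure D2:**
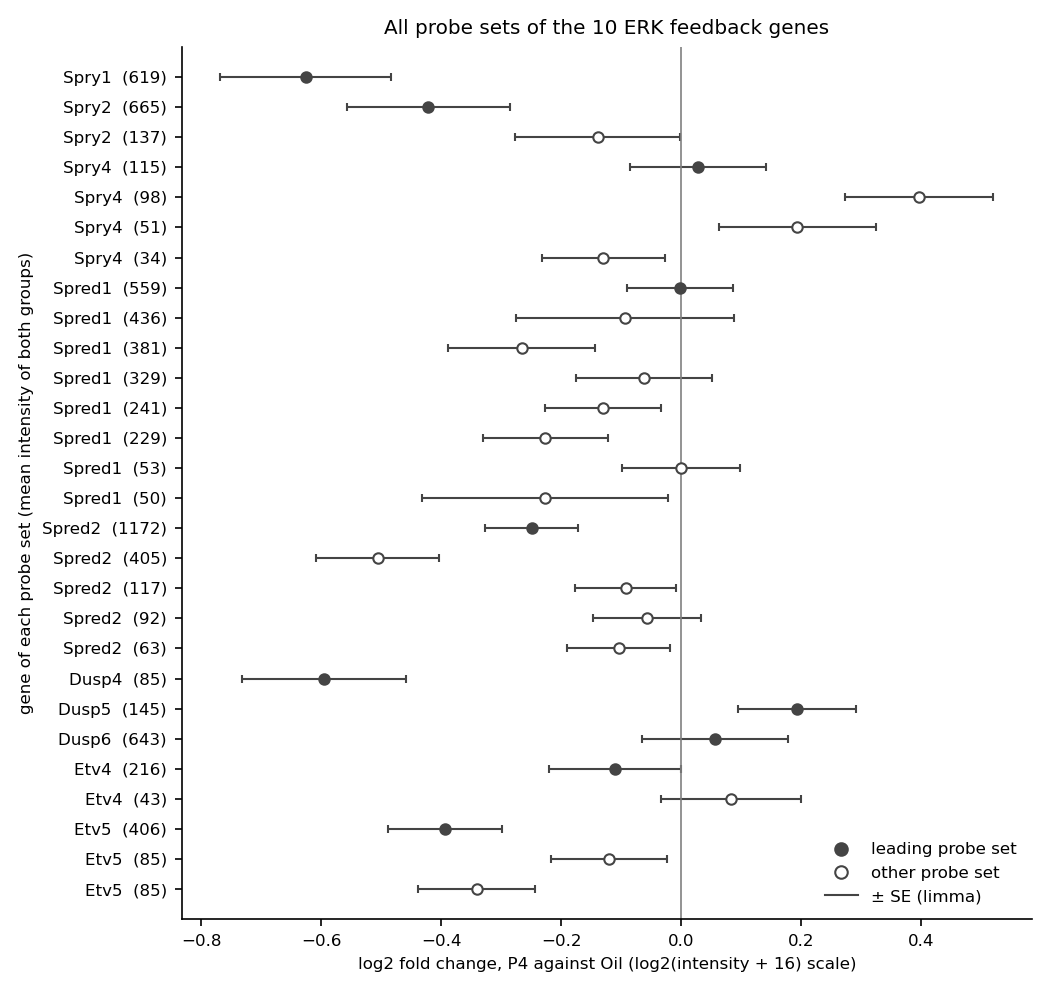
Log2 fold change of P4 against Oil with its limma SE for all 28 probe sets of the 10 genes; filled points are the leading probe sets, and the number beside each gene is the mean intensity of both groups. Spred2 and Etv5 lie below 0 in all of their probe sets, and the 4 of Spry4 lie on both sides of 0.

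The DUSP enzymes are phosphatases of MAP kinases. Dusp4, a nuclear phosphatase of ERK and other MAP kinases, had 62.7, 55.8 and 74.7 after P4, against 86.2, 109 and 122 after Oil. The groups did not overlap, and all 6 values were below the median intensity of their arrays. The log2 fold change was -0.60 ± 0.14 (adjusted p 0.0298; 0.00786 with the block). The pseudocount of 16 understates the change of a gene this dim: the ratio of the untransformed means was 0.608, against a fitted fold of 0.662. The call was lost without P4 replicate 1 (0.0635) or 2 (0.0994) and without Oil replicate 2 (0.113) or 3 (0.0783). Dusp4 has 1 probe set and belongs to the dimmest 30% of genes, so the filter on dim genes removed it.

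Dusp5, a nuclear phosphatase specific to ERK, had 138, 163 and 166 after P4, against 131, 130 and 141 after Oil. The groups overlapped only through P4 replicate 1, which was below Oil replicate 3. The log2 difference was 0.19 ± 0.10 (adjusted p 0.264, 95% interval -0.03 to 0.42). Dusp6, the cytoplasmic ERK phosphatase, had 652, 605 and 705 after P4, against 527, 667 and 702 after Oil. The Oil arrays spanned a wider range than the P4 arrays, and the log2 difference was 0.06 ± 0.12 (adjusted p 0.842, 95% interval -0.22 to 0.34).

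Etv4 and Etv5 encode PEA3 factors, which act downstream of FGF signalling. Etv5 had 369, 355 and 321 after P4, against 428, 479 and 483 after Oil. All P4 arrays were lower, and the log2 fold change was -0.39 ± 0.09 (adjusted p 0.0289; 0.0218 with the block). Its other 2 probe sets were dimmer, with log2 differences of -0.34 ± 0.10 and -0.12 ± 0.10, neither of them called. The call of Etv5 held without P4 replicate 1 (0.0322) and was lost without P4 replicate 2 (0.0738) or 3 (0.0786) and without Oil replicate 1 (0.0544), 2 (0.116) or 3 (0.0839). After scaling to the hybridisation controls, Etv5 had an adjusted p of 0.116, Spry1 0.0621 and Dusp4 0.0421. Without both arrays numbered 2 none of the 3 was called (0.196 for Spry1, 0.283 for Dusp4 and 0.236 for Etv5). Etv4 had 227, 185 and 210 after P4, against 248, 204 and 224 after Oil. The groups overlapped, and the log2 difference was -0.11 ± 0.11 (adjusted p 0.615, 95% interval -0.36 to 0.14).

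**Figure D3:**
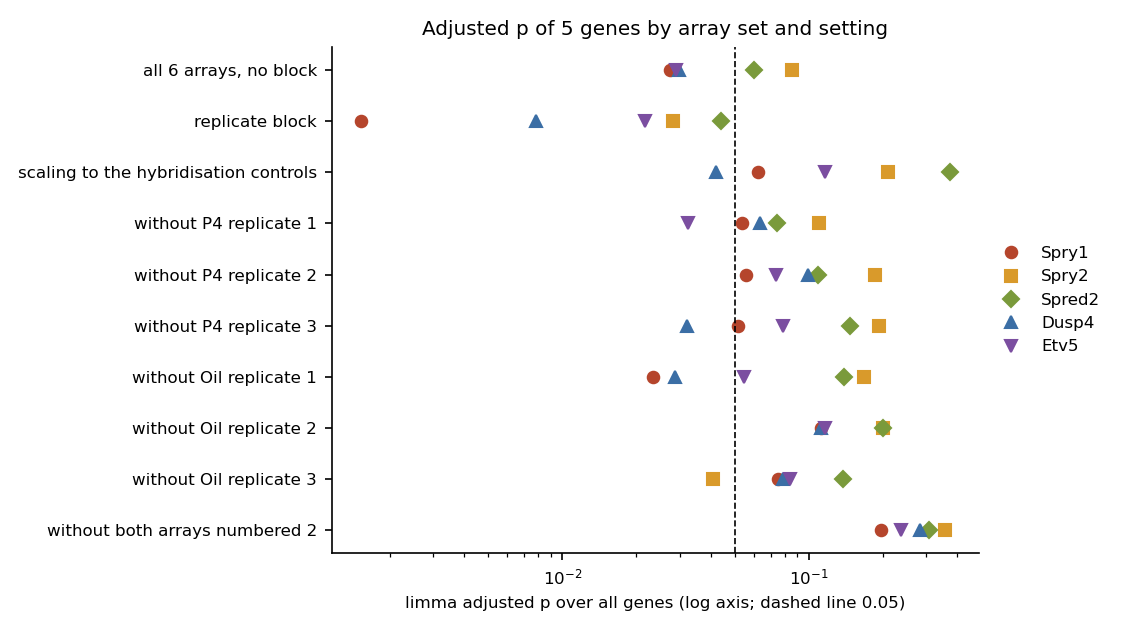
Limma adjusted p over all genes (log axis, dashed line at 0.05) of Spry1, Spry2, Spred2, Dusp4 and Etv5 with all 6 arrays, with the replicate block, with scaling to the hybridisation controls and with arrays left out. All 5 genes lie left of the line with the block, and none does without both arrays numbered 2.

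Within the groups, arrays of the same number stood in the same order for 3 of the 10 genes. For Spry1 and Spry4, replicate 1 was lowest and replicate 2 highest in both groups. For Etv4, replicate 1 was highest and replicate 2 lowest in both groups. For the other genes, among them Dusp4, the order differed. For Spry2, replicate 2 was the highest Oil array and the middle P4 array, and for Etv5 the order was reversed between groups. The share of all genes with the same order was not taken.

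Whether related genes responded unequally was asked for 8 pairs, by the difference of their log2 values on each array. The level of such a difference has no meaning between probe sets, so only its change between groups was read. Spry1 minus Spry4 was lower after P4 by -0.65 log2, Dusp4 minus Dusp6 by -0.65 and Dusp4 minus Dusp5 by -0.79, and Spred1 minus Spred2 was higher by 0.25. In these 4 pairs the groups did not overlap (exact two-sided permutation p 0.1, adjusted p 0.2 over the 8 pairs). Each of them holds Spry1, Dusp4 or Spred2, whose own values did not overlap, so they partly restate the values of single genes. Of all single genes 31.8% had no overlap, and the share over other pairs of genes was not taken. Dusp4 minus Dusp6 varied little within groups, with -3.09, -3.11 and -2.99 after P4, against -2.41, -2.45 and -2.38 after Oil. Etv4 minus Etv5 changed by 0.28 (exact p 0.2), Spry2 minus Spry4 by -0.45 (0.2), Dusp5 minus Dusp6 by 0.14 (0.4) and Spry1 minus Spry2 by -0.20 (0.6), all with overlap. With 3 against 3 arrays this exact test cannot pass 0.05, and no other test of the pairs was run.

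**Figure D4:**
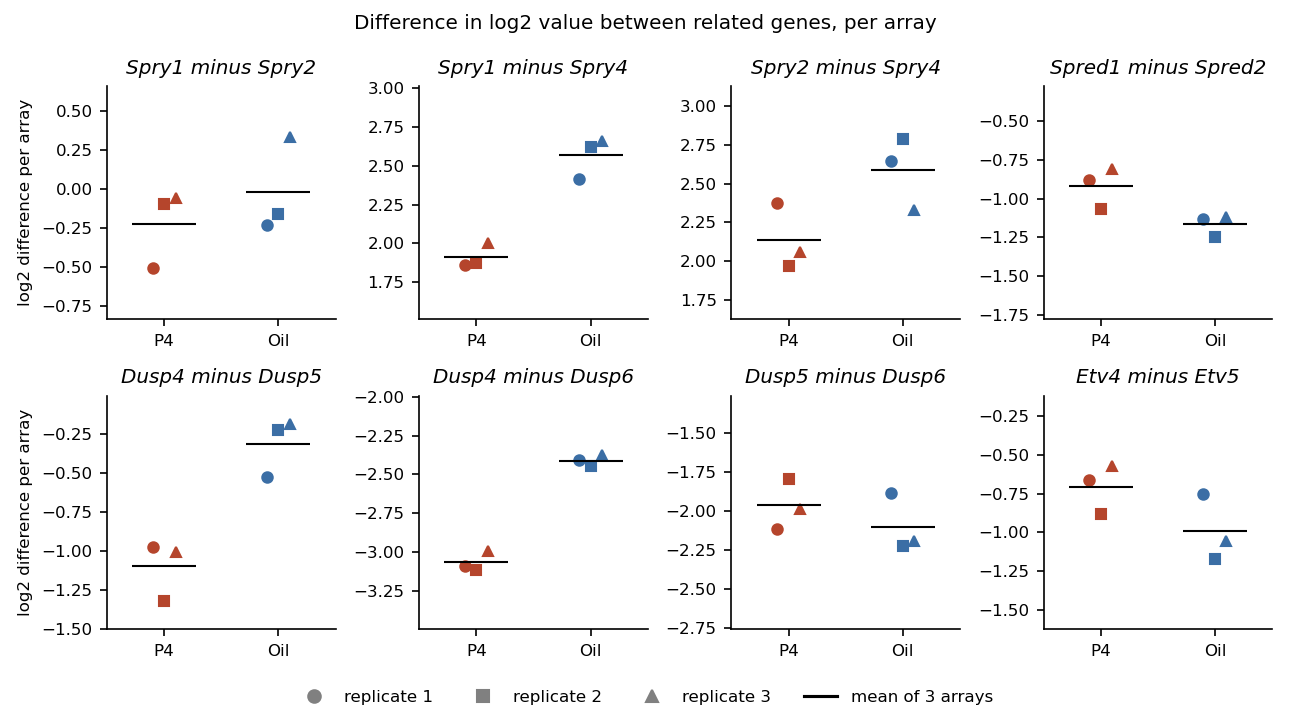
Difference in log2 value between related genes on each array, P4 at left and Oil at right, with the mean of 3 arrays as a bar; all panels span the same range of log2 units. Spry1 minus Spry4, Dusp4 minus Dusp5, Dusp4 minus Dusp6 and Spred1 minus Spred2 do not overlap between groups.

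By the distance between 6 log2 values after subtraction of each gene's mean, the genes nearest to Spry1 were Btg2 (distance 0.0880), Mfsd4a (0.118) and Zfp521 (0.156). Their log2 fold changes were -0.63, -0.57 and -0.59. Nearest to Dusp4 were Mcm6 (0.162), Capn5 (0.165) and Inhba (0.173), and nearest to Etv5 were Slc17a5 (0.0937), Flcn (0.101) and Fam210b (0.106). This likeness over 6 arrays includes the difference between groups and is a description only. Mfsd4a (limma adjusted p 0.0666) and Mcm6 (0.064) were not called, and the other nearest genes were called lower after P4.

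The 7 related lists held 110 different genes, of which 102 were measured. Of these 8 were higher and 15 lower, 22.5% called, against 13.0% of all genes. The lists, too, were chosen with earlier results of these data known. Among 14 measured genes of the relay from receptor to ERK, 1 fell: Gab1, a docking protein below receptors, had 465, 483 and 452 after P4, against 828, 896 and 790 after Oil (-0.82 ± 0.08, adjusted p 0.00122). All P4 arrays of Gab1 were far below the Oil arrays. The other relay genes, among them Map2k1, which encodes MEK (0.03 ± 0.08), Ptpn11 (0.09 ± 0.07) and Braf (-0.21 ± 0.12), were not called. The list had 6 further genes that are not analysed here.

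Of 16 other brakes on RAS and ERK, 1 rose and 2 fell. Errfi1, an inhibitor of the EGF receptor, had 1634, 2378 and 2047 after P4, against 788, 723 and 965 after Oil (1.27 ± 0.16, adjusted p 0.00279). Errfi1 thus moved opposite to Spry1, Dusp4 and Etv5, with every P4 array above the Oil arrays. Il17rd, the FGF signalling inhibitor Sef, had 506, 466 and 455 after P4, against 717, 652 and 738 after Oil (-0.55 ± 0.09, adjusted p 0.00682). Rasa3, a GTPase activator for RAS, had a log2 fold change of -0.53 ± 0.12, a call lost without P4 replicate 1 or 3 or Oil replicate 2 or 3 (adjusted p up to 0.101). The Sprouty relative Spry3 had a log2 difference of 0.07 ± 0.09 and the SPRED relative Spred3 one of 0.03 ± 0.10, neither called. Capicua itself, Cic, had 2052 ± 235 after P4 and 2337 ± 157 after Oil (-0.19 ± 0.10, adjusted p 0.283).

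Of 9 other MAP kinase phosphatase genes, 1 rose. Dusp14 had 237, 263 and 248 after P4, against 111, 108 and 99.8 after Oil. The groups lay far apart (1.12 ± 0.09, adjusted p 0.000609). Dusp1, an immediate early phosphatase, had a log2 difference of 0.27 ± 0.17 and Dusp7, a cytoplasmic ERK phosphatase, one of 0.49 ± 0.14 (adjusted p 0.0628), neither called. Of 16 measured other ERK output transcripts, Trib1, a pseudokinase gene, was higher (0.57 ± 0.10, adjusted p 0.0114), and the receptor gene Epha4 (-0.73 ± 0.13, adjusted p 0.0116) and the cyclin gene Ccnd1 (-0.31 ± 0.08, adjusted p 0.038) were lower. Trib1 and Epha4 lost their calls without Oil replicate 2 (0.0551 and 0.0592), and Ccnd1 kept its call when P4 replicate 1 was removed but lost it without each other array (up to 0.128) and after hybridisation control scaling. Of 15 measured ETS genes outside the 10, Ehf (0.47 ± 0.12), an epithelial factor, and Etv6 (0.46 ± 0.11), a repressor, were higher. Ehf lost its call without P4 replicate 1 or 3 or Oil replicate 1 or 2 (up to 0.151), and Etv6 without P4 replicate 2 or 3 or Oil replicate 1 or 2 (up to 0.104).

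**Figure D5:**
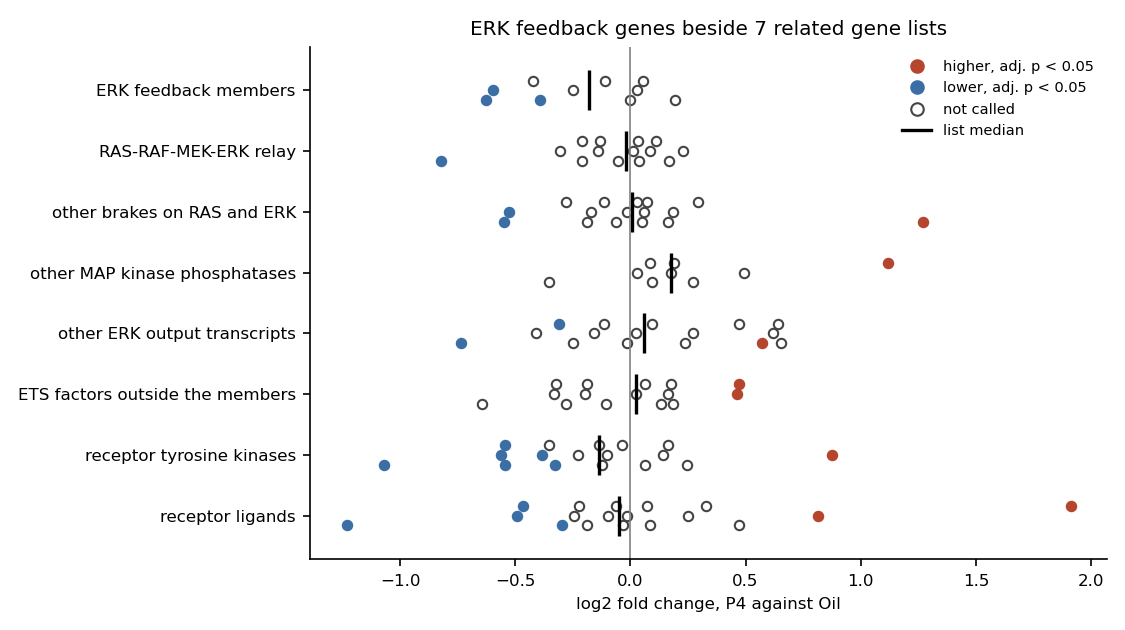
Log2 fold change of P4 against Oil for the 10 ERK feedback genes and the measured genes of 7 related lists, 1 point a gene; filled points passed a limma adjusted p of 0.05, and bars are list medians. Called genes lie on both sides of 0 in 4 of the related lists, and the 3 called feedback genes lie below 0.

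Of 17 receptor tyrosine kinase genes, 1 rose and 6 fell. Egfr, the EGF receptor, had 606, 739 and 689 after P4, against 398, 327 and 364 after Oil (0.87 ± 0.11, adjusted p 0.00284). The mean of all its probe sets gave a smaller log2 fold change of 0.26 ± 0.07 (adjusted p 0.0418). Met, the receptor of hepatocyte growth factor, had 345, 318 and 518 after P4, against 707, 838 and 946 after Oil (-1.07 ± 0.19, adjusted p 0.00979), and the mean of its probe sets gave -0.59 ± 0.13 (adjusted p 0.0302). Igf1r (-0.54 ± 0.08), Erbb3 (-0.56 ± 0.13) and Fgfr2 (-0.55 ± 0.15) were also lower. Erbb3 kept its call when P4 replicate 1 was removed but lost it without each other array (up to 0.0962), and Fgfr2 lost its call without P4 replicate 2 or 3 or Oil replicate 1 or 2 (up to 0.17). Without probe sets open to cross-hybridisation Fgfr2 had -0.19 ± 0.15 (adjusted p 0.501).

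Of 18 measured ligand genes, 2 rose and 4 fell. Igf1 (1.91 ± 0.18) and Fgf1 (0.81 ± 0.13) were higher. Fgf18, an FGF of the uterine stroma, had 86.5, 67.8 and 68.9 after P4, against 218, 255 and 133 after Oil (-1.23 ± 0.21, adjusted p 0.00936). Kitl (-0.49 ± 0.08), Hgf (-0.47 ± 0.10) and Pdgfb (-0.30 ± 0.08) were lower. Pdgfb was not called in any of the 6 fits on 5 arrays (up to 0.17), and Hgf without P4 replicate 2 or 3 or Oil replicate 1 or 3 (up to 0.0894).

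Markers of cell types were set beside the 10 genes. The summed level of 8 endothelial markers did not overlap, at 5952 to 6120 after P4 and 6453 to 7086 after Oil. Their log2 differences ran from -0.38 to -0.04, with a median of -0.18, and 1 of the 8, Tek (-0.38 ± 0.10), was called. The call of Tek held without Oil replicate 1 but was lost without each other array (up to 0.132). Of 9 epithelial markers 1 rose, the claudin gene Cldn3 (1.21 ± 0.12), with sums of 12560 to 19260 after P4 and 16110 to 18540 after Oil. The median of the 9 was -0.34, and 6 had a log2 difference below 0 (5 after scaling to the hybridisation controls). The keratin genes Krt18 (-0.62 ± 0.19, adjusted p 0.0673) and Krt19 (-0.34 ± 0.10, adjusted p 0.0721), named after their values were seen, did not pass. Both were below every Oil array on all P4 arrays, as were 17.5% of all genes. Besides Cldn3, Krt7 (0.14 ± 0.22) and Cldn4 (0.31 ± 0.14) were above 0, neither called. Of 8 stromal markers 1 fell, Lum (-0.90 ± 0.18, lost without Oil replicate 2 at 0.0698), with sums of 41070 to 52790 after P4 and 46540 to 53790 after Oil. The median of the 8 was -0.04, with 4 of them below 0, and the highest was Col1a1 (0.57 ± 0.20, adjusted p 0.103), also named after its value was seen. No marker of smooth muscle, leukocytes, granulocytes or mast cells was called by limma, by adjusted or by unadjusted p under 0.05. Their brightest markers were the smooth muscle genes Acta2, with 15852 ± 908 after P4 and 15959 ± 286 after Oil, and Tagln, with 9563 ± 760 after P4 and 10209 ± 136 after Oil. Ptprc of leukocytes had 835 ± 501 after P4 and 753 ± 454 after Oil, and Csf1r 788 ± 373 after P4 and 728 ± 326 after Oil. The granulocyte genes varied widely, with S100a8 at 2779 ± 2457 after P4 and 1028 ± 1664 after Oil and S100a9 at 2238 ± 2060 after P4 and 944 ± 1553 after Oil. The mast cell genes Kit and Cpa3 had 192 ± 56.6 and 115 ± 20.6 after P4, against 178 ± 89.5 and 130 ± 41.7 after Oil. The part of endothelial, epithelial or stromal content in the changes of Spry1, Dusp4 and Etv5 was not tested. The log2 ratio of 3' to 5' probe sets, a sign of RNA quality, averaged 0.873 after P4 and 0.715 after Oil for Gapdh (exact two-sided permutation p 0.7), and 1.11 after P4 and 1.07 after Oil for actin (0.9). P4 replicate 1 had the highest ratio of both, at 1.245 for Gapdh and 1.38 for actin. Oil replicate 1 came next, at 0.881 and 1.18.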

How the data were processed

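The 6 deposited columns of linear intensities were used, with 1 value per probe set and array. Per the labels, biotin-labelled cRNA was hybridised to Affymetrix arrays. The summarisation and scaling are not given in the sources used here. Values were taken as log2(intensity + 16) without further normalization, because array medians differed by 0.0669 log2. Of 45101 probe sets, 34945 had 1 gene symbol in the platform annotation, 932 had several and 9160 are unnamed here, besides 64 controls. The probe set with the highest mean log2 value led each of 18193 genes.

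The 2 groups were compared in R 4.3.3 with limma 3.58.1 (lmFit, then eBayes with trend). Benjamini-Hochberg adjustment ran over all 18193 genes, and calls have an adjusted p under 0.05. The method was tested on simulated data. Same-numbered P4 and Oil arrays deviated together from their group means (correlations of 0.526, 0.126 and 0.643), although Oil replicate 2 correlated more with P4 replicate 1 (0.287). The main fit had no block, and the replicate number was a block only in an alternative fit. The labels share the number only. The members and lists were chosen with earlier results of these data known. The named genes are all members, up to 4 called genes of each other list in each direction, the 2 highest genes of a list without a call, and the 3 genes nearest to each called member. Alternatives were other pseudocounts, scalings, probe set choices, filters and moderation, the block and arrays left out. Promoter windows came from RefSeq (GRCm38.p6).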

Additional observations from a re-analysis of the deposited data

How the results depend on the processing

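Of the 10 ERK feedback genes 3 were called, and 3 under each alternative of pseudocount, quantile normalization, median centring, probe set choice, moderation and the filter on dim genes (there Dusp4 was removed and Spred2 passed). The count was 5 with the replicate block, and 1 after scaling to the hybridisation controls, 0 to 2 with 1 array left out and 0 without both arrays numbered 2. Calls lost by single genes with 1 array left out stand in the report. The cause of these changes was not tested, and fits with fewer arrays have fewer samples. Over all genes 1106 were higher and 1262 lower. The counts were 1690 and 2111 with the block, 1927 and 624 after hybridisation control scaling (75.5% of calls higher, against 46.7%), 485 to 1075 higher and 508 to 1227 lower with 1 array left out, and 99 and 72 without both arrays numbered 2. Without a choice per gene, 1774 of 34945 probe sets were higher and 1761 lower. Of the related genes 23 were called, 12 to 22 with 1 array left out and 2 without both arrays numbered 2. The pairs without overlap numbered 4, and 4 to 6 with 1 array left out. Leaving arrays out cannot make separated groups overlap, so this count could not fall and says nothing on stability. Uncalled values near 0 changed sign. Spred1 had 0.0088 with quantile normalization, 0.013 with median centring, 0.13 with scaling to the hybridisation controls, 0.037 without both arrays numbered 2 and -0.039 to 0.057 with 1 array left out. Etv4 had 0.017 with the scaling. Spry4 had -0.0059 without both arrays numbered 2 and -0.056 to 0.11 with 1 array left out, and Dusp6 -0.066 to 0.14. Dusp5 minus Dusp6 was -0.012 without both arrays numbered 2. Without both arrays numbered 2, Gab1, Dusp14 and Cldn3 were the called genes named from the other lists that kept their calls. The genes nearest to called members were not followed through the alternatives. Mean probe set values ended the calls of Il17rd, Trib1, Epha4, Erbb3, Fgfr2, Kitl, Pdgfb and Esr1. Hybridisation control scaling ended those of Rasa3, Ccnd1, Fgfr2, Hgf, Pdgfb, Esr1 and Tek. Calls also ended with median centring (Ccnd1, Fgfr2, Pdgfb), quantile normalization or all probe sets (Fgfr2, Pdgfb), eBayes without trend (Ccnd1, Fgfr2) and without probe sets open to cross-hybridisation (Fgfr2, and Hoxa10 at 0.43). Detection calls were not used here, so a limit of detection cannot be given. Whether dim genes such as Dusp4 lay above it is uncertain.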
